A study of Rattus norvegicus with 14 samples.

Results

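Involucrin (Ivl), loricrin, filaggrin (Flg), the transglutaminases Tgm1 and Tgm3, caspase-14 (Casp14), the kallikrein protease Klk7, desmocollin 1 (Dsc1), Krtdap and the protease inhibitor Spink5 form a set of 10 genes that build and shed the outermost layer of the epidermis. They were chosen by name, as array probes whose accession matches one of these genes in the RefSeq gene table. Probes matched 6 of the 10 genes, which are Ivl (NCBI gene 60583), Tgm1 (60335), Tgm3 (366189), Casp14 (299587), Klk7 (292852) and Spink5 (361319). Loricrin, Flg, Dsc1 and Krtdap had no matched probe and are not analysed here. The 6 measured genes stand among 18609 genes tested, and 7 probes report them, since Klk7 has 2.

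The samples were skin biopsies of male CD hairless rats, 1 one-colour Agilent array per animal. The 6 exposed rats received 94 GHz millimetre waves for 3 h per day on 3 days per week over 5.5 months, and the 8 sham rats went through sham sessions without exposure. No transgene or other agent is named for either group. The biopsies were whole skin, so fewer cells of a type and less RNA per cell cannot be told apart. The study asked whether chronic exposure alters gene expression in skin.

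In the upper epidermis, keratinocytes stop dividing, flatten and replace their plasma membrane by the cornified envelope, a shell of proteins such as involucrin that transglutaminases cross-link to each other and to lipids. The dead cells stay joined by corneodesmosomes, which kallikrein proteases cut so that cells can be shed one by one. The inhibitor encoded by Spink5 holds these proteases back, and loss of this inhibitor gives a fragile, scaling skin in humans and mice.

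All values are log2 processed signals relative to the 75th percentile of the same array, so that a difference of 1 is a 2-fold change. Differences are exposed minus sham. The 75th percentile itself was 1069 to 1945 scanner units on exposed arrays and 799.5 to 1946 on sham arrays. The epidermal and dermal genes Krt1, Krt5, Krt14 and Col1a1 were well above background on all 14 arrays, as skin labels require. The biopsies differed in other tissues. All 12 measured skeletal muscle markers had a higher mean in exposed animals, and 10 of them were well above background on all 14 arrays. Their score, the mean over the list of each gene's deviation from its own mean, was -1.94 to 4.97 in exposed animals (median 0.69) and -2.81 to 3.57 in sham animals (median -1.21). All 14 measured inner root sheath and hair shaft markers also had a higher mean in exposed animals, with scores of -1.63 to 1.85 (median 0.59) in exposed and -2.00 to 1.53 (median -0.73) in sham animals. The part of muscle and hair in the results below was not tested, except that the muscle score was used as a covariate. Suprabasal keratinocyte markers, 4 of 7 measured, scored -0.38 to 0.17 in exposed (median -0.07) and -0.71 to 0.50 in sham animals (median 0.16). Of these, 2 had a higher mean in exposed animals. The same held for 1 of 7 basal keratinocyte markers (score medians -0.05 and 0.05) and 1 of 11 dermal fibroblast markers (medians 0.06 and 0.12). The part of these cells in the results below was not tested.

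None of the 6 envelope and desquamation genes changed with exposure by the adjusted test (limma, Benjamini-Hochberg over all genes), against 0.0% of all genes tested. None had an unadjusted p under 0.05 either, against 3.45% of all genes. Ivl, Tgm1, Tgm3 and Spink5 had the lower mean in exposed animals, and Casp14 and Klk7 the higher one. Thus 4 of 6 were lower, against 57.7% of all genes. The groups overlapped for every one of the 6 genes, where 0.0322% of all genes did not overlap. Each probe was well above background on 14 of 14 arrays and saturated on none. Differences ranged from -0.18 to 0.15, and the smallest adjusted p over all genes was 0.9994.

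**Figure D1:**
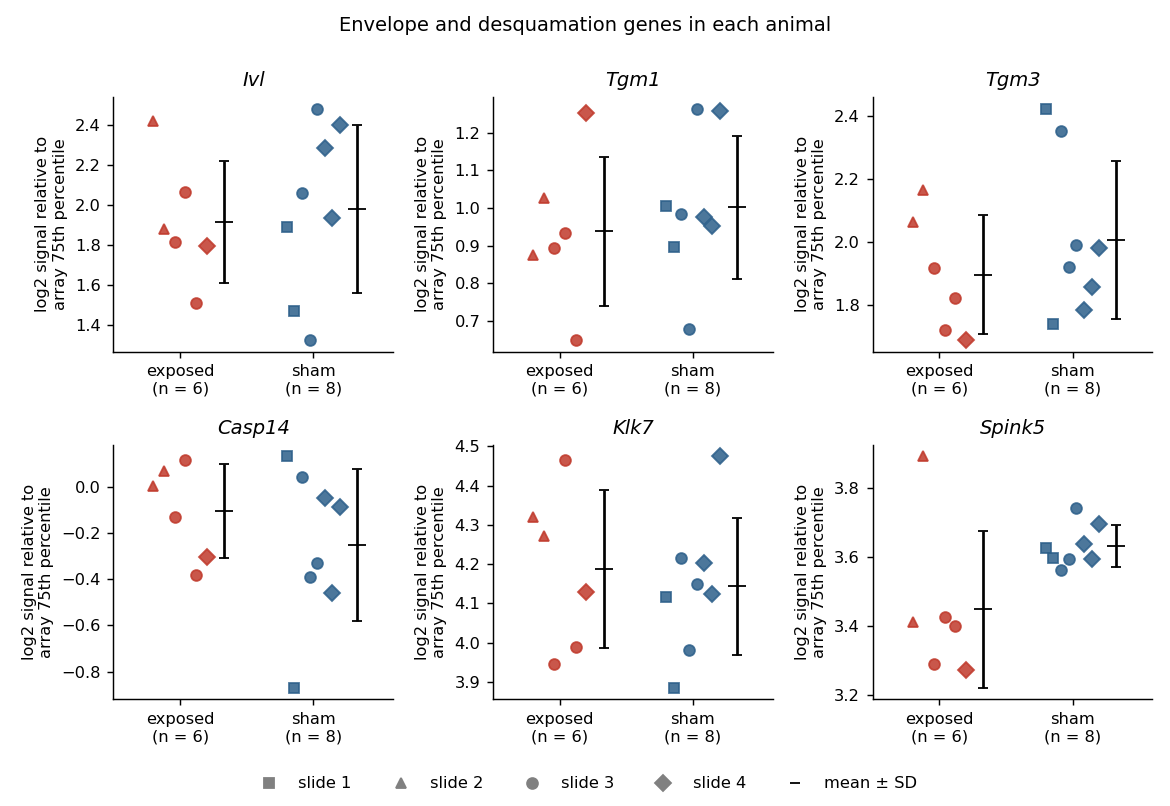
Log2 signal relative to the array's 75th percentile (vertical axis) of the 6 measured genes in each animal, exposed (red, n = 6) left of sham (blue, n = 8); the symbol gives the slide and bars give mean ± SD. The groups overlap for each gene, and for Spink5 5 of the 6 exposed animals lie below all 8 sham animals while 1 lies above them.

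Ivl encodes involucrin, an early scaffold protein of the envelope that is cross-linked beneath the membrane before later proteins are added. Its level was 1.51 at the lowest, 1.85 at the median and 2.42 at the highest in exposed animals, against 1.33, 2.00 and 2.48 in sham animals. The ranges almost coincided, and the animal with the least Ivl and the one with the most were both sham. The means were 1.91 ± 0.31 in the exposed animals and 1.98 ± 0.42 in the sham animals (SD, n = 6 and n = 8). The difference was -0.07 ± 0.19 (SE), with a 95% interval of -0.47 to 0.34 (limma, unadjusted p = 0.734). As a fold, that interval runs from 0.72 to 1.27. The sign of the difference turned without exposed animal 5, at 0.0148, and without sham animal 5, at 0.0054. Without exposed animal 1 the difference was -0.17.

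Tgm1 and Tgm3 encode the transglutaminases that form the isopeptide bonds of the envelope. Tgm1 is anchored to the membrane and also attaches lipids, while Tgm3 is soluble and is active in late epidermis and in the hair follicle. Tgm1 was 0.65, 0.91 and 1.25 (lowest, median, highest) in exposed animals and 0.68, 0.98 and 1.26 in sham animals. These ranges were again nearly equal, and only exposed animal 5 lay below all sham animals. Its difference was -0.06 ± 0.11 (SE), with a 95% interval of -0.29 to 0.16 (limma, unadjusted p = 0.556). Leaving out exposed animal 6 gave -0.13, and leaving out exposed animal 5 gave -0.0055.

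Tgm3 was 1.69, 1.87 and 2.16 in exposed animals and 1.74, 1.95 and 2.42 in sham animals. Exposed animals 4 and 6 lay below all sham animals, and sham animals 1 and 3 lay above all exposed animals. The means of Tgm3 were 1.90 ± 0.19 in the exposed animals and 2.01 ± 0.25 in the sham animals (SD, n = 6 and n = 8). They differed by -0.11 ± 0.12 (SE), with a 95% interval of -0.37 to 0.15 (limma, unadjusted p = 0.378). Without sham animal 1 the difference was -0.05.

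Casp14 encodes caspase-14, a protease of the cornifying epidermis that in mice takes part in breaking filaggrin down to amino acids. It was -0.38, -0.07 and 0.11 in exposed animals and -0.87, -0.21 and 0.13 in sham animals. All exposed animals lay within the sham range, and sham animal 2 was the lowest by a wide gap. The means were -0.11 ± 0.20 in the exposed animals and -0.25 ± 0.33 in the sham animals (SD, n = 6 and n = 8). The difference was 0.15 ± 0.15 (SE), with a 95% interval of -0.17 to 0.46 (limma, unadjusted p = 0.336). Leaving out sham animal 2 brought it to 0.06.

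Klk7 encodes a chymotrypsin-like kallikrein that cuts corneodesmosomal proteins at the skin surface. Its brighter probe was at 3.95, 4.20 and 4.47 in exposed animals and 3.89, 4.14 and 4.47 in sham animals. The exposed range lay inside the sham range, and the means differed by 0.04 ± 0.10 (SE), with a 95% interval of -0.18 to 0.26 (limma, unadjusted p = 0.681). Leaving out exposed animal 4 gave -0.0128, and leaving out exposed animal 3 gave 0.0909. The other probe of Klk7 averaged 2.68 ± 0.15 in the exposed animals and 2.75 ± 0.26 in the sham animals (SD, n = 6 and n = 8). That is a difference of -0.07, so the probes disagreed in direction and Klk7 has no settled sign. Across the 14 animals the probes correlated at r = 0.69 (permutation p = 0.0067) and rho = 0.64 (permutation p = 0.0155), and at r = 0.67 without the 2 arrays farthest from the median.

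Spink5 encodes LEKTI, a multidomain serine protease inhibitor that restrains Klk7 and related kallikreins. Its values in exposed animals 1 to 6 were 3.41, 3.89, 3.29, 3.43, 3.40 and 3.27. In sham animals 1 to 8 they were 3.63, 3.60, 3.56, 3.59, 3.74, 3.64, 3.60 and 3.70. Thus 5 of 6 exposed animals lay below every sham animal, and exposed animal 2 lay above every sham animal. The means were 3.45 ± 0.23 in the exposed animals and 3.63 ± 0.060 in the sham animals (SD, n = 6 and n = 8). The difference was -0.18 ± 0.088 (SE), or 0.881-fold, with a 95% interval of 0.773 to 1.00 (limma, unadjusted p = 0.0551, adjusted p = 0.999). On this scale the sham animals lay close together, within 3.56 to 3.74.

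Exposed animal 2 decided the size of the Spink5 difference. Without it the other 5 exposed animals, at 3.27 to 3.43, did not overlap with the sham animals, a pattern shown by 0.118% of all genes in the same comparison. The difference was then -0.27 ± 0.059 (SE, 95% interval -0.40 to -0.14), and its unadjusted p of 0.000477 ranked 4 among the 18609 genes (limma, adjusted p = 0.999). In the same comparison 4.13% of all genes had an unadjusted p under 0.05. This animal was left out after its Spink5 value was seen, and the other 5 exposed animals lay below all sham animals from the start. The lack of overlap, the p-value and the rank are therefore descriptions. The shares of all genes leave out the same animal, which was picked by Spink5 alone. Its biopsy had the highest skeletal muscle score of all 14, at 4.97. Muscle scores of exposed animals 1 to 6 were -0.84, 4.97, 0.02, -1.94, 1.63 and 1.37. In sham animals 1 to 8 they were -1.24, -2.76, -2.73, -1.18, 3.57, -0.93, 2.86 and -2.81. The Spink5 values are given above in the same order. Whether muscle has a part in the value of exposed animal 2 was not tested. With the muscle score as a covariate over all 14 animals, the difference was -0.23 (limma, unadjusted p = 0.0175, adjusted p = 0.957). Spink5 was printed at 1 spot per array, so no technical repeat of exposed animal 2 exists.

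The separation of the Spink5 values depended on the scaling, while the sign of their difference did not. After normexp background correction with the same 75th percentile scaling, the 5 other exposed animals, at 3.49 to 3.64, again lay below all sham animals, at 3.78 to 3.92. In the authors' deposited values, exposed animal 2 was at 0.19, the other exposed animals at -0.46 to -0.03 and the sham animals at -0.28 to 0.14, with only 1 exposed animal below all sham animals. After quantile normalization these values were 4.24, 3.58 to 4.02, and 3.77 to 4.18, again with 1 exposed animal below all sham animals. The SD of Spink5 among sham animals was 0.13 on both of these scales, more than the 0.060 under the 75th percentile. Without exposed animal 2, the difference was -0.24 in the authors' deposited values (limma, unadjusted p = 0.0105, adjusted p = 0.999) and -0.24 after quantile normalization (unadjusted p = 0.0128, adjusted p = 1.00). After normexp it was -0.28 (limma, unadjusted p = 0.000184, adjusted p = 1.00). These fits leave out an animal picked by its Spink5 value, so their p-values are descriptions too.

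The arrays lay on 4 slides, and only slides 3 and 4 held both groups. Within slide 3, with 3 exposed and 3 sham animals, 4 of the 6 genes were lower in exposed, against 56.7% of all genes. Within slide 4, with 1 exposed and 3 sham animals, 5 were lower, against 56.1% of all genes. Ivl, Tgm3 and Spink5 were lower in both, which held for 31.9% of all genes. Spink5 differed by -0.26 within slide 3 and -0.37 within slide 4, and no exposed animal on either slide reached the sham values there. Tgm3 differed by -0.27 and -0.19, and Ivl by -0.16 and -0.41. Tgm1 was at -0.15 within slide 3 and 0.19 within slide 4, Casp14 at 0.09 and -0.11, and Klk7 at 0.02 and -0.14. These 3 genes thus took opposite signs on the 2 slides.

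With slide as a fixed block, the difference comes from slides 3 and 4 alone, so exposed animal 2, on slide 2, does not enter it. The spread within slide 2 still enters the SE and the p-value, which are therefore not free of that animal. Spink5 then differed by -0.30 ± 0.10 (SE; limma, unadjusted p = 0.0127, adjusted p = 1.00). With slide as a random block, which uses all 14 arrays, it differed by -0.17 (limma, unadjusted p = 0.0696, adjusted p = 1.00). The slide itself called none of the 6 genes (limma moderated F with group in the model), and neither did it call any gene of all those tested (0.0%). Unadjusted slide p-values of the 6 genes were 0.197 to 0.760, and 2.77% of all genes had one under 0.05.

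**Figure D2:**
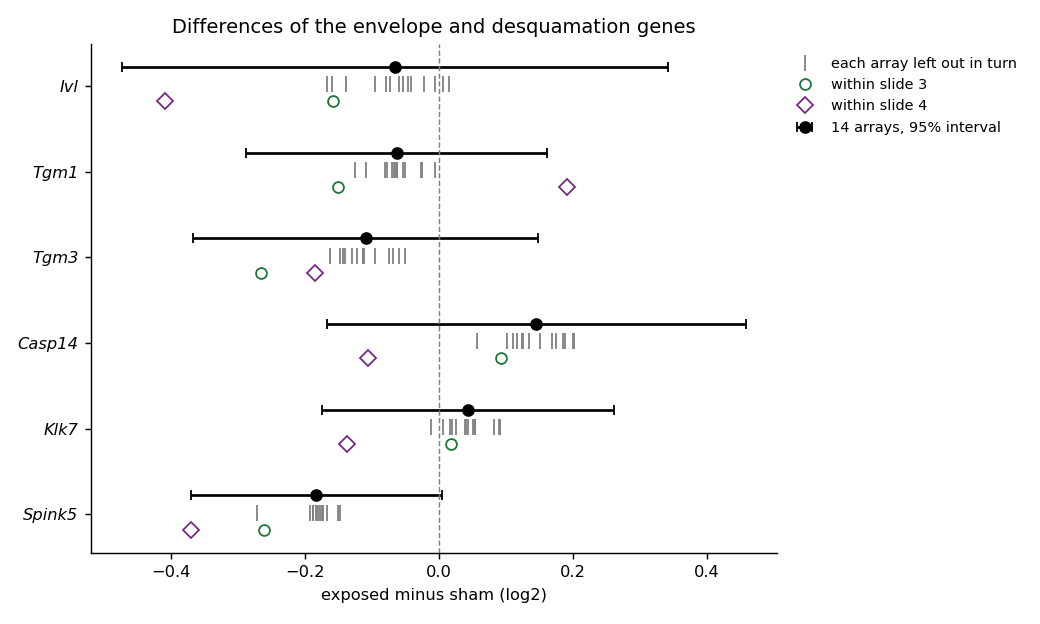
Exposed minus sham difference (log2, horizontal axis) of each measured gene over 14 arrays with its 95% interval, with each array left out in turn (ticks), and within slides 3 and 4 (open symbols). Each interval includes 0, and Spink5 and Tgm3 stay below 0 under every array left out and on both slides.

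The genes differed in how much they varied between animals of one group. Ivl had the widest pooled within-group SD of the 6, at 0.38, and 76.4% of all genes tested varied less. Casp14 followed at 0.28 (59.3% of genes varied less) and Tgm3 at 0.23 (45.6%). Tgm1 at 0.19 (36.0%), Klk7 at 0.19 (33.8%) and Spink5 at 0.15 (23.0%) were below the median of all genes, 0.24. Ivl, Tgm1, Casp14 and Klk7 were each printed at 2 spots per array, whose SD within an array was 0.047, 0.041, 0.095 and 0.033. The spread between animals also holds biopsy, labelling and hybridisation, which the spots do not measure.

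Across the 14 animals r was above 0 for all 15 pairs of the 6 genes (0.07 to 0.72, median 0.26). No share for pairs of other genes is given here. No pair had an adjusted p under 0.05 for Pearson's r over the 15 pairs, and 4 had an unadjusted one (100000 permutations, two-sided). After quantile normalization, 2 of the 15 were below 0, the lowest at -0.22 for Casp14 and Spink5. Ivl and Klk7 were the most alike, at r = 0.72 (permutation p = 0.0035, adjusted p = 0.0514) and rho = 0.75 (permutation p = 0.00287, adjusted p = 0.0430). Their r was 0.80 without the 2 animals farthest from the median of Ivl (permutation adjusted p = 0.0279) and 0.64 after centring on slide means. It was 0.71 among the 6 exposed and 0.80 among the 8 sham animals. After quantile normalization it was 0.41 (permutation p = 0.139). The coefficient thus varied with the scaling, and the difference between the 2 scalings was not tested.

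Casp14 and Klk7 had r = 0.68 (permutation p = 0.00686, adjusted p = 0.0514) and rho = 0.62 (permutation p = 0.0216, adjusted p = 0.162). Their r was 0.60 without the 2 farthest animals and 0.67 after centring on slide means, but 0.25 after quantile normalization. Ivl and Tgm1 had r = 0.63 (permutation p = 0.0155, adjusted p = 0.0774) and rho = 0.47 (permutation p = 0.0908, adjusted p = 0.257). Without the 2 animals farthest from the median of Ivl that r was 0.40 (permutation p = 0.192), a change that was not tested. It was 0.64 after centring on slide means (permutation p = 0.0145) and 0.59 after quantile normalization (permutation p = 0.0283). Among the 6 exposed animals it was 0.16, and among the 8 sham animals 0.89, a difference that was not tested. Tgm3 and Casp14 had r = 0.55 (permutation p = 0.0433, adjusted p = 0.162), rho = 0.45 (permutation p = 0.105, adjusted p = 0.257) and r = 0.39 without the 2 farthest animals. The protease Klk7 and its inhibitor Spink5 had r = 0.22 (permutation p = 0.446, adjusted p = 0.626) and rho = 0.27 (permutation p = 0.349, adjusted p = 0.436). All 15 correlations share the same arrays and the same scaling value on each.

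**Figure D3:**
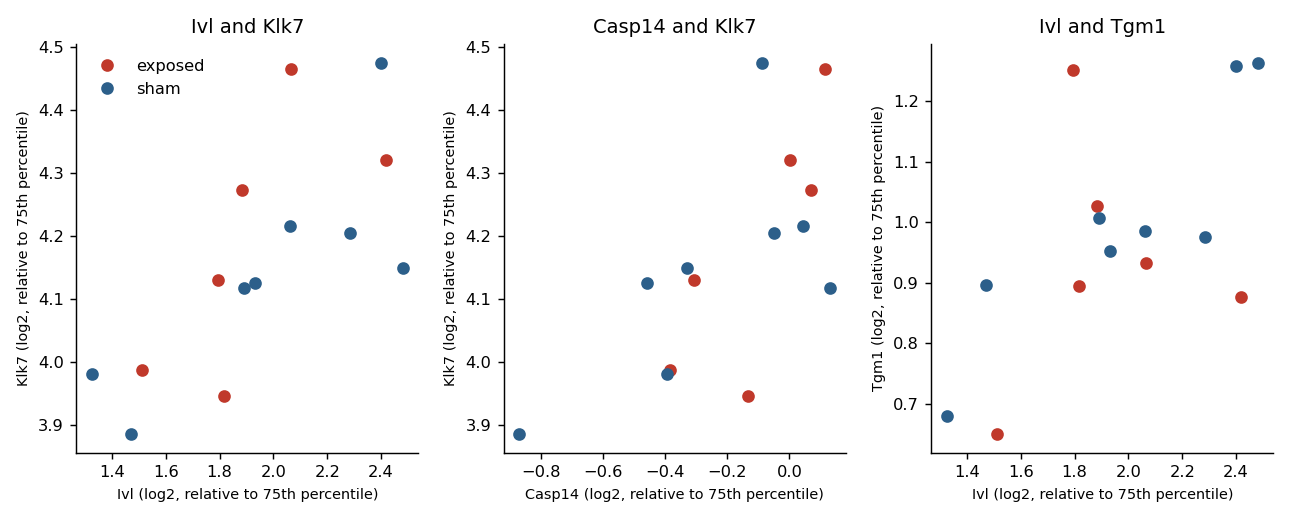
Levels of Klk7 against Ivl, of Klk7 against Casp14 and of Tgm1 against Ivl (log2 relative to the array's 75th percentile on both axes), 1 point per animal, exposed in red and sham in blue. Points of both groups lie along the same upward band in the first panel, where r is 0.72 over 14 animals.

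Among the other genes of cornification and shedding, 73 of 110 listed were tested, and none passed the adjusted threshold. Of these, 52 (71.2%) had the lower mean in exposed animals, against 57.7% of all genes. Their median difference was -0.06, against -0.02 over all genes. After quantile normalization 47 of the 73 were lower (64.4%), against 52.0% of all genes. Within slide 3, 54 were lower (74.0%, against 56.7% of all genes), and within slide 4, 45 (61.6%, against 56.1%). An unadjusted p under 0.05 was found for 2 of the 73 (2.74%), against 3.45% of all genes.

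The other envelope scaffold proteins had 15 of 31 genes tested. Of these, 13 were lower in exposed (86.7%, median -0.08), against 57.7% of all genes. After quantile normalization 11 were lower (73.3%), against 52.0% of all genes. Both genes with an unadjusted p under 0.05 were of this list. They are 13.3% of its tested genes and 2.74% of the 73, against 3.45% of all genes. The list is 1 of 6, and its share was not tested. Sciellin (Scel), a precursor protein of the envelope, was 1.98, 2.12 and 2.26 (lowest, median, highest) in exposed and 2.19, 2.29 and 2.54 in sham animals. Of the exposed animals 4 lay below all sham animals, and Scel differed by -0.17 ± 0.070 (SE; limma, unadjusted p = 0.0258, adjusted p = 0.999). Within slides 3 and 4 it differed by -0.13 and -0.10. Envoplakin (Evpl), a plakin that links the envelope to desmosomes and keratin, was 1.14, 1.26 and 1.40 in exposed and 1.00, 1.62 and 1.71 in sham animals. A single sham animal lay below all exposed animals, while the sham median lay above all of them. The difference of Evpl was -0.25 ± 0.10 (SE; limma, unadjusted p = 0.0285, adjusted p = 0.999), with -0.34 within slide 3 and -0.04 within slide 4.

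The lipid barrier list, with enzymes and transporters for ceramides and fatty acids, had 11 of 13 tested genes lower (median -0.11). That is 84.6%, against 57.7% of all genes. After quantile normalization it was also 11, against 52.0% of all genes. Fa2h, which hydroxylates the fatty acids of ceramides, was -1.54, -0.87 and -0.50 in exposed and -1.10, -0.55 and -0.15 in sham animals. The 2 lowest values were of exposed animals, and the difference was -0.36 ± 0.18 (SE; limma, unadjusted p = 0.0577). The fatty acid transporter Slc27a4 differed by -0.11 (unadjusted p = 0.157), with 4 exposed animals below all sham animals.

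The enzymes of envelope assembly and filaggrin processing, 8 of 10 tested, had 3 genes lower in exposed and a median of 0.01. That is 37.5% lower, against 57.7% of all genes. Capn1, a calcium-dependent protease, averaged 2.85 ± 0.27 in the exposed animals and 3.08 ± 0.18 in the sham animals (SD, n = 6 and n = 8), a difference of -0.23 (limma, unadjusted p = 0.0702). Furin, a proprotein convertase, averaged 1.48 ± 0.31 in the exposed animals and 1.73 ± 0.21 in the sham animals (SD, n = 6 and n = 8), a difference of -0.24 (limma, unadjusted p = 0.0931). It was -0.03 within slide 3 and -0.83 within slide 4, which holds 1 exposed animal. The widest difference of this list, 0.78 ± 0.58 (SE; limma, unadjusted p = 0.200), belonged to Padi3, which was named after its value was seen and is also active in hair follicles. Padi3 is also among the 14 inner root sheath and hair shaft markers given above as higher in exposed animals.

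Other proteases and inhibitors of shedding had 11 of 17 tested genes lower in exposed (64.7%, median -0.07), against 57.7% of all genes. Ctsd, the lysosomal protease cathepsin D, was 5.54, 5.62 and 5.98 in exposed and 5.68, 5.83 and 5.95 in sham animals. As with Spink5, most exposed animals (4 of 6) lay below all sham animals and 1 lay above them, and Ctsd differed by -0.14 (limma, unadjusted p = 0.0927). Wfdc5, which carries a protease inhibitor domain, differed by -0.23 (unadjusted p = 0.129).

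The desmosome and corneodesmosome list had 5 of 6 tested genes lower (83.3%, median -0.11), against 57.7% of all genes. The desmosomal linker plakoglobin (Jup) differed by -0.13 (unadjusted p = 0.109) and the desmosomal cadherin Dsg3 by -0.13 (unadjusted p = 0.124). Regulators of terminal differentiation had 9 of 14 lower (64.3%, median -0.02), against 57.7% of all genes. After quantile normalization 6 were lower (42.9%), against 52.0% of all genes. The transcription factors Maf, at 0.17 (unadjusted p = 0.301), and Cebpb, at 0.08 (unadjusted p = 0.376), were both higher in exposed animals. Within slide 4, Maf differed by 0.15 and Cebpb by -0.01.

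**Figure D4:**
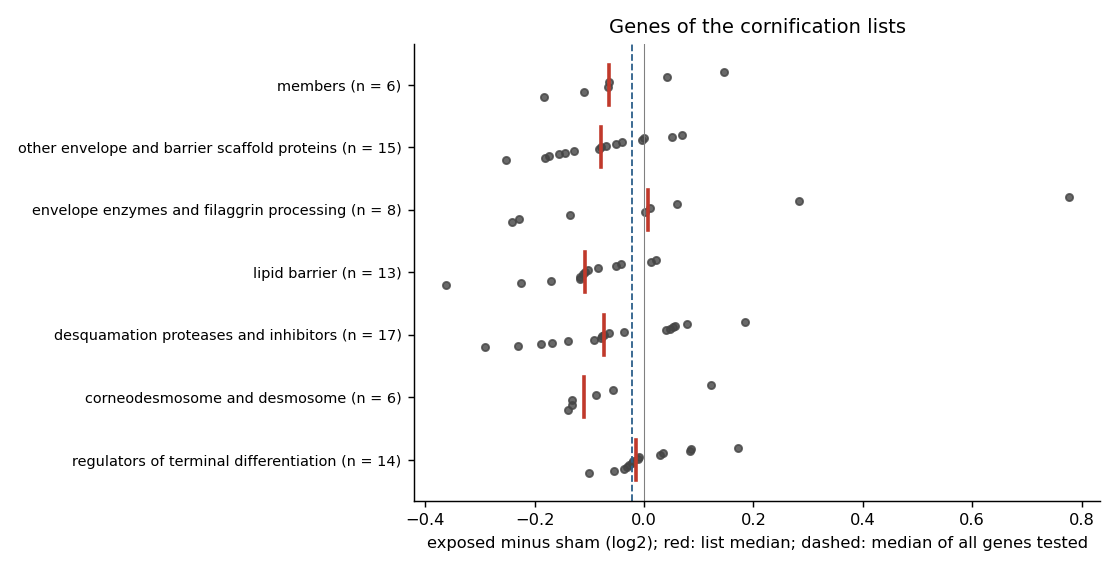
Exposed minus sham difference (log2, horizontal axis) of each tested gene, grouped by role; red bars mark list medians and the dashed line the median of all genes tested, -0.02. The medians of the scaffold, lipid barrier, protease and desmosome lists lie left of the dashed line, and those of the enzyme and regulator lists lie right of it.

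The mean of the 6 genes, each centred on its own mean, was -0.24 to 0.15 in exposed animals and -0.28 to 0.22 in sham animals. Of 11153 genes with a symbol and on no list, the 5 whose pattern over the 14 arrays was most like this mean were Csnk2a2 (r = 0.90), Drd5 (r = 0.90), Sarm1 (r = 0.88), Serpina12 (r = 0.88) and Cyp3a9 (r = 0.88). Csnk2a2 encodes a catalytic subunit of casein kinase 2, Drd5 a dopamine receptor, Serpina12 the serpin vaspin and Cyp3a9 a cytochrome P450. The 5 most opposed were Dis3l (r = -0.81), Cdkn2a (r = -0.81), Apln (r = -0.80), Slc5a3 (r = -0.78) and St6galnac3 (r = -0.78). Cdkn2a encodes cell cycle inhibitors and Apln the peptide apelin. After centring on slide means, r was 0.87 to 0.94 for the 5 alike genes and -0.88 to -0.77 for the 5 opposed ones. These genes were picked as extremes of the same arrays and share their scaling, so the coefficients are a description.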

How the data were processed

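Skin RNA of 14 rats was labelled with Cy3 and hybridised to 1 array each, per the labels' protocols. The deposited scanner files hold spot intensity on a linear scale, background-subtracted by Agilent Feature Extraction 10.7.3.1 per the file headers, with no scaling across arrays. A table of 15168 probes deposited by the authors is in log2 units, each probe centred over the arrays, with the normalization not stated in the labels; its columns correlated at 0.901 to 0.992 with the scaled signals of the same arrays, after the same centring, and had medians of -0.0086 to 0.0119.

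Control and outlier spots were left out, log2 signals were set against each array's 75th percentile, and spots of a probe were averaged. Probes well above background on at least 6 arrays were kept (21012 of 30367). Accessions were matched to RefSeq gene symbols of assembly GRCr8 (59.3% of probes). The array design refers to rn4, so no coordinates are given. The brightest kept probe stood for a gene. Exposed and sham animals were tested in limma 3.58.1 under R 4.3.3 (lmFit and eBayes on group, two-sided, Benjamini-Hochberg over 18609 genes) at an adjusted p of 0.05. The slide term was a moderated F test with group in the model. The number of arrays limits the precision.

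Genes and lists were chosen with earlier results of these data known. All members were named, the 2 genes of each list with the smallest p, and the 5 genes most and least like the members' mean. Animal numbers only name animals. Rats were housed in pairs, per the labels, with no record here of which shared a cage, so p-values treat animals as independent. Alternatives covered background correction by normexp (offset 50, on the median spot signal), normalization, filters, probe choice, slide, array weights, muscle markers and each array left out. Combinations of exposed animal 2 left out with other scalings were added after the data were seen.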

Additional observations from a re-analysis of the deposited data

Results flagged for a closer look

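The distance of the highest and lowest animal from the rest was checked in 36 sets of values, each 1 gene in 1 group, of which chance marks about 1 in 20. Spink5 in exposed animal 2, at 3.89, stood apart from the other exposed animals, whose next value was 3.43. Its part in the difference between the groups is given with the Spink5 values. Scel in sham animal 6 was the highest of the sham animals at 2.54, where the next value was 2.32. Evpl in the same sham animal was the lowest at 0.998, where the next value was 1.40. Without sham animal 6, the exposed minus sham difference was -0.14 for Scel and -0.33 for Evpl. That array had the lowest 75th percentile of signal, 799.5 scanner units, and its part in these values was not tested.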

How the results depend on the processing

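Under 27 alternatives, no gene and none of the 6 members passed the adjusted threshold for exposed against sham. For the slide term, run under 6 of these alternatives (background correction, normalization, filters and probe choice), no member passed, and 1 gene of all was called without a filter on dim probes. The smallest adjusted p under any alternative was 0.194, with array weights, where 2327 genes had an unadjusted p under 0.05 against 642 as reported. That count was 1560 without sham animal 6, 995 without exposed animal 3 and 290 within slide 4. Of 162 member differences under the alternatives, 153 kept their sign. Within slide 4, Tgm1 was 0.19, Casp14 -0.11 and Klk7 -0.14. Klk7 was also -0.0343 with slide as a block and -0.014 as the mean of its probes, and Ivl was 0.0431 with array weights. The cause was not tested. With each array left out in turn, differences were -0.167 to 0.0148 for Ivl, -0.13 to -0.01 for Tgm1, -0.16 to -0.05 for Tgm3, 0.06 to 0.20 for Casp14, -0.0128 to 0.0909 for Klk7 and -0.27 to -0.15 for Spink5. The unadjusted p of Spink5 was 0.0298 after normexp background correction and 0.0896 after quantile normalization (limma, adjusted p = 1.00 in both). In an alternative chosen after seeing the data, normexp without exposed animal 2, its difference was -0.28. Without the 2 animals farthest from the median, 1 pair of members (Ivl and Klk7) passed the adjusted threshold, against 0 as reported. No paired analysis was possible, because exposed and sham animals were different rats and the labels do not match them to each other.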
